A study of Bos grunniens with 18 samples.

Results

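Peaks of N6-methyladenosine (m6A) in yak (Bos grunniens) ovaries were compared between estrus (YO-F) and pregnancy (YO-P). A peak was called shared where its span overlapped a peak of the other stage by at least 1 bp on the same chromosome and strand, and estrus-only or pregnancy-only where it did not. Only the first part of each peak list was analysed here, and the lists had the plus strand of chromosome 1 from 956005 to 36967325 in common. This range held 32 of the 312 peaks analysed over all stages, 19 from estrus and 13 from pregnancy, and these named 13 genes. Another 270 pregnancy peaks lay outside the range and were left out of the comparison. All positions are those of the deposited lists, whose genes carry Ensembl identifiers of the Bos grunniens genome.

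The ovaries came from healthy adult yaks of the same age on 1 farm and were taken after slaughter. YO-F ovaries were taken in August and YO-P ovaries in December, so stage and season cannot be told apart. Each stage had 3 immunoprecipitated (IP) and 3 input libraries from whole ovary, and the labels do not say whether an IP and an input of the same number came from the same RNA. The peak list of a stage is 1 list over its libraries, so peak values have no replicates and no error. Whether the estrus list includes YO-F2, which the study left out of its expression analysis, is not given in the sources used here. Across 130 genes the input library of YO-F2 had a median correlation of 0.80 with the other libraries, against 0.928 to 0.960 for each of the other 8. None of the 40 granulosa, theca, luteal and oocyte markers was among the 173 genes of the expression table analysed here, so the tissue label could not be checked against them.

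m6A is a methyl group on internal adenosines of messenger RNA, set by a methyltransferase complex around METTL3 and METTL14, removed by FTO or ALKBH5, and read by proteins such as the YTH family, which affect splicing, translation and decay. In mammalian transcripts it is typically dense around the stop codon, in the 3' untranslated region (UTR) and in long internal exons. In this assay poly(A) RNA is broken into fragments, fragments bound by an m6A antibody are sequenced beside the unselected input, and a peak is a stretch where the antibody-bound reads exceed the input. Fold enrichment is that ratio, and it is relative to the input of the same stage, so it is not an amount of methylated RNA. None of the 27 m6A writer, eraser and reader genes listed was in the expression table analysed here.

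In estrus, 9 of 19 peaks (47.4%) were shared with pregnancy, and 10 were estrus-only. In pregnancy, 9 of 13 peaks (69.2%) were shared, and 4 were pregnancy-only. Counted by gene the stages were closer, since 9 of the 13 genes had a peak in both stages, 2 in estrus alone (RBM11 and CXADR) and 2 in pregnancy alone (ENSBGRG00000000024 and the peak annotated to LIPI). That last peak lies on the strand of RBM11 and starts at its first base, and counted to RBM11 it gives 10 genes in both stages, 1 in estrus alone and 1 in pregnancy alone. Of the 10 estrus-only peaks, 8 lay in genes that also had a pregnancy peak, 7 of them as additional peaks beside a shared one in GABPA, BACH1, EVA1C and IFNAR1. The map of peak spans shows this arrangement gene by gene.

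**Figure D1:**
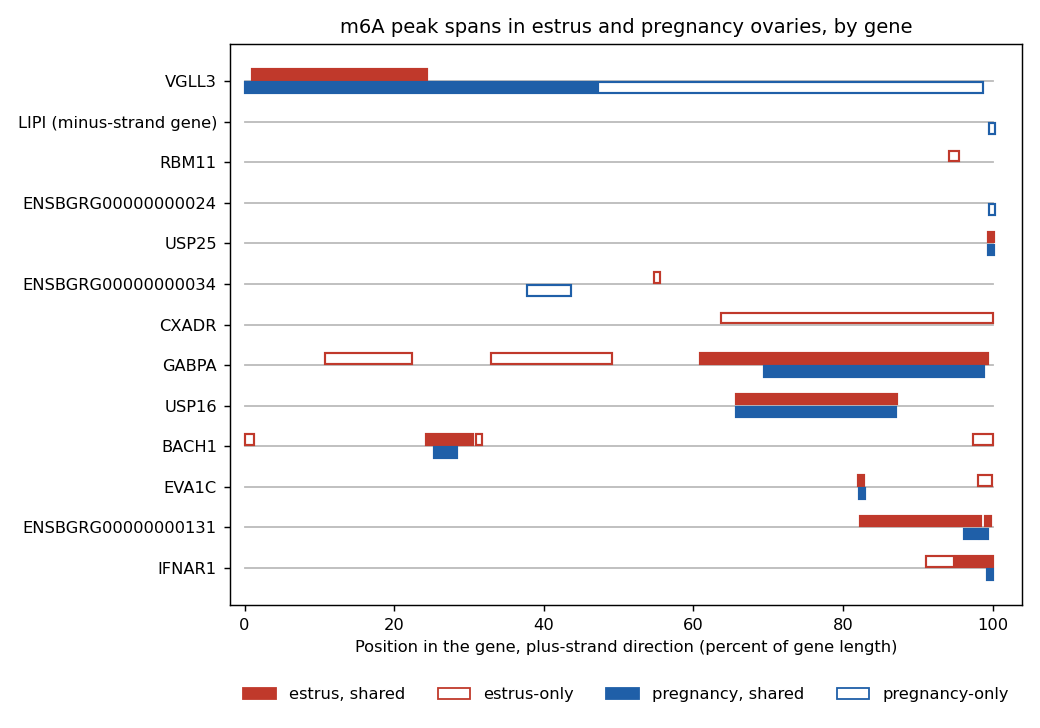
Spans of the m6A peaks along each of the 13 genes, in percent of gene length from the lower to the higher coordinate, introns included (a span runs from the first to the last exon block of a peak). Estrus peaks are drawn above the line and pregnancy peaks below it, filled where shared and open where found in 1 stage. Most shared peaks sit in the right-hand part of the gene.

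Many peak spans of both stages reached the 3' end of their gene. Of the 18 estrus peaks with an annotation, 6 were in a 3' UTR, 1 in a 5' UTR and 11 in other exons, and of the 13 pregnancy peaks these numbers were 4, 1 and 8. In estrus 10 of 19 peaks ended within the last 10% of a plus-strand gene, and in pregnancy 7 of 13 did. Introns included, some of these spans began far upstream, such as the second pregnancy peak of VGLL3 at 47.3% of the gene. Median fold enrichment was 3.95 in estrus (range 1.7 to 108) and 4.86 in pregnancy (range 2.24 to 17.8). With 1 list per stage, none of these differences could be tested.

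Shared and stage-only peaks differed in the false discovery rate (FDR) that the authors' peak caller gave them. All 8 shared estrus peaks with values and all 9 shared pregnancy peaks had an FDR of 0.01 or lower, which is a log10 FDR of -2 or lower. Of the stage-only peaks, 5 of 10 in estrus and 1 of 4 in pregnancy reached it. The strongest stage-only peaks were those of VGLL3 in pregnancy (log10 FDR -24.4), RBM11 in estrus (-18.3) and the last exon of BACH1 in estrus (-12). Median fold enrichment was 8.35 for shared and 3.23 for estrus-only peaks in estrus, and 5.25 for shared and 4.59 for pregnancy-only peaks in pregnancy. A peak near the calling limit can be in 1 list and absent from the other without a difference in methylation, and the lists hold no value for a stage in which no peak was called.

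**Figure D2:**
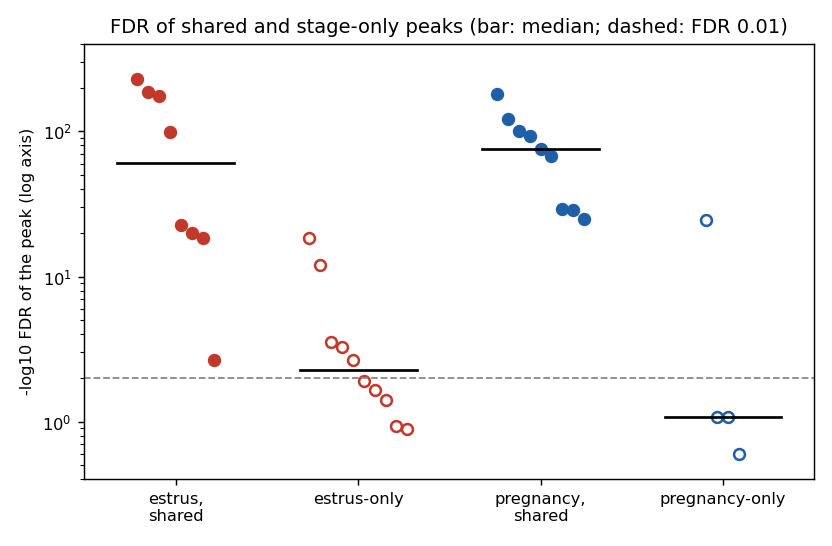
Each point is a peak, at the -log10 FDR of the authors' peak caller on a log axis, for shared and stage-only peaks of estrus and pregnancy, with the median as a bar and an FDR of 0.01 dashed. All 17 shared peaks with values lie above the dashed line, against 5 of 10 estrus-only and 1 of 4 pregnancy-only peaks.

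The shared peaks formed 10 overlapping pairs, of which 9 had a fold enrichment in both stages. Enrichment was higher in estrus in 5 pairs and higher in pregnancy in 4, with a median log2 ratio of estrus over pregnancy of 0.44 (range -0.43 to 4.92). This median depended on how pairs were counted, because 3 of the 5 pairs higher in estrus came from ENSBGRG00000000131. With 1 value per gene, 3 genes were higher in estrus and 4 in pregnancy, and the median was -0.34. Only 2 of the 9 pairs differed by more than 1 on the log2 scale, in GABPA and in ENSBGRG00000000131.

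**Figure D3:**
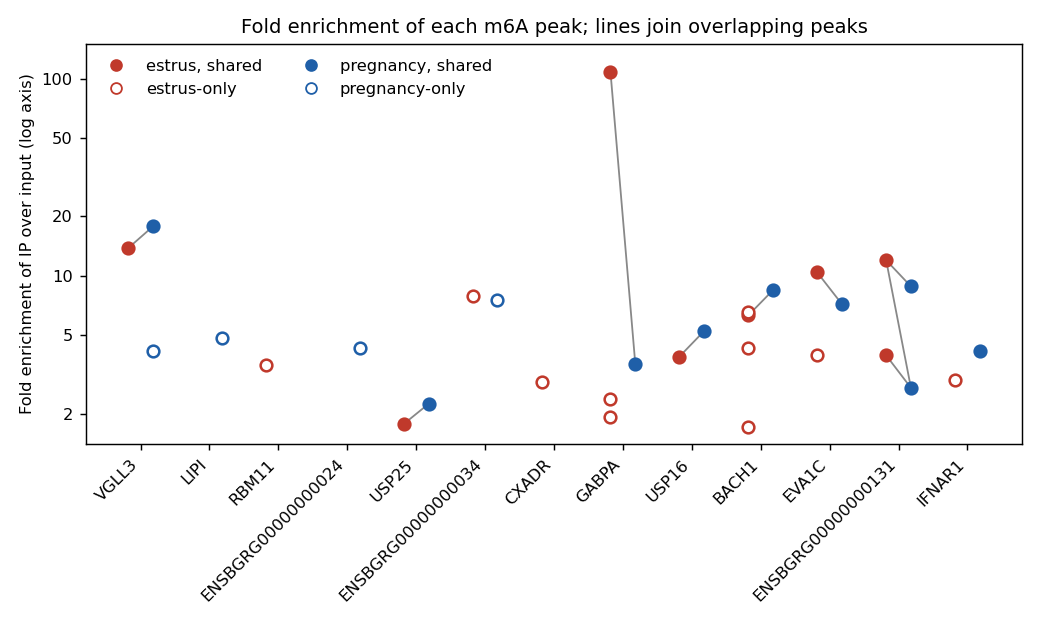
Fold enrichment of IP over input of each peak with a value, on a log axis, by gene, with estrus at the left and pregnancy at the right of each gene, filled where shared and open where found in 1 stage. Lines join the 9 overlapping pairs, and the GABPA pair falls from 108 in estrus to 3.57 in pregnancy while 7 of the other 8 pairs differ by less than 1 on the log2 scale.

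Among regulators of transcription, GABPA had the largest difference in enrichment. GABPA is the DNA-binding subunit of the GA-binding protein, an ETS-family factor known for driving genes of mitochondrial function. Its shared estrus peak spanned 27551366 to 27568039 in 4 exon blocks of 778 bp in all, was annotated to the 3' UTR, and had a fold enrichment of 108 (log10 FDR -98.5). The overlapping pregnancy peak, 27555041 to 27567800, lay wholly inside it, covered 389 bp in 3 exon blocks, and had a fold enrichment of 3.57 (log10 FDR -75.2). The ratio was 30.3 on the linear scale and 4.92 on the log2 scale, and the estrus value was the highest of all 31 peaks with values. It is a single value without replicates. Estrus peaks of far lower fold enrichment had a lower log10 FDR, among them USP16 (3.89, -186) and EVA1C (10.4, -230). The 2 GABPA peaks also cover unlike stretches of exon, so the ratio cannot be read as the size of a difference in methylation. Estrus also had 2 peaks upstream without a counterpart in pregnancy, from exon 2 of 10 with a fold enrichment of 1.92 (log10 FDR -2.64) and from exon 4 with 2.37 (log10 FDR -3.54).

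The difference in GABPA transcript level between the stages was small. Input FPKM (fragments scaled to exon length and to the mapped reads of the library) was 9.96 and 8.96 in YO-F1 and YO-F3, and 10.9, 10.8 and 11.8 in YO-P1 to YO-P3. The estrus libraries were below all pregnancy libraries, with means of 9.46 ± 0.710 (SD, n = 2) and 11.2 ± 0.529 (SD, n = 3). The log2 difference of estrus minus pregnancy was -0.24 with a standard error of 0.19 (limma, adjusted p = 0.739), so the lower level in estrus did not pass the test.

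VGLL3, a cofactor that binds TEAD transcription factors and so meets the Hippo pathway, had called peaks over more of its length in pregnancy than in estrus. In pregnancy a peak in 4 exon blocks of 1072 bp began at the first base of the gene (956005 to 982433, 5' UTR) with a fold enrichment of 17.8 and a log10 FDR of -24.8. Estrus had 1 peak inside that span (956570 to 969695, exon 1 of 5), of 91 bp in 2 exon blocks, with a fold enrichment of 13.8 and a log10 FDR of -2.66. The log2 ratio of this pair was -0.37. Pregnancy had another peak over the 3' UTR (982612 to 1011551, fold enrichment 4.15), which no estrus peak overlapped. Introns included, the pregnancy spans thus ran over nearly the whole gene, and the estrus span ended at 24.3% of its length.

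VGLL3 was also the peak gene with the largest difference in FPKM, in the same direction. It was 2.18 and 2.81 in YO-F1 and YO-F3 and 5.80, 3.55 and 5.17 in YO-P1 to YO-P3, so all estrus values were below all pregnancy values. The means were 2.49 ± 0.443 (SD, n = 2) and 4.84 ± 1.16 (SD, n = 3). The log2 difference was -0.91 with a standard error of 0.44, which did not pass the test (limma, adjusted p = 0.535). With YO-F2, where VGLL3 was at 0.135, the difference was -2.06 and met the study's standard. That standard is an absolute log2 difference of at least 1 with p under 0.05, here by limma where the study used edgeR. In whole ovary, fewer cells of a type and less RNA per cell cannot be told apart. The part of the transcript level in the peak calls was not tested.

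BACH1, a heme-responsive repressor of antioxidant genes, had 4 peaks in estrus and 1 in pregnancy. The shared peak lay in exon 2 of 4, where the estrus peak (31787417 to 31788456, fold enrichment 6.30) contained the whole pregnancy peak (31787595 to 31788100, fold enrichment 8.47). The log2 ratio of the pair was -0.43. The estrus-only peaks were in the 5' UTR (31783463 to 31783671, 4.28, log10 FDR -1.41), in exon 2 behind the shared peak (31788515 to 31788634, 1.70, log10 FDR -1.91) and in the last exon (31799364 to 31799779, 6.54, log10 FDR -12). Of these, the last-exon peak alone had an FDR below 0.01. BACH1 FPKM was 3.67 and 2.92 in estrus and 3.06, 2.79 and 3.62 in pregnancy, with overlapping stages and a log2 difference of 0.06 (standard error 0.29).

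The deubiquitinating enzymes USP16 and USP25 showed nearly the same peaks in both stages. USP16, which removes ubiquitin from histone H2A, had 1 peak of 4 exon blocks from exon 12 of 18, starting at 31440744 in both stages and ending at 31447434 in estrus and 31447374 in pregnancy. Its fold enrichment was 3.89 in estrus and 5.25 in pregnancy, a log2 ratio of -0.43. USP25 had 1 peak over its last exons, ending at 16187193 in both stages, with a fold enrichment of 1.77 in estrus and 2.24 in pregnancy, a log2 ratio of -0.34. Both had log10 FDR values of -22.5 or lower in each stage.

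USP16 FPKM was 20.2 and 19.0 in estrus and 17.5, 17.9 and 18.3 in pregnancy, so the estrus values were above all pregnancy values, by 0.13 on the log2 scale (standard error 0.13, limma, adjusted p = 0.764). USP25 FPKM was 10.6 and 13.9 in estrus and 13.8, 13.3 and 8.74 in pregnancy, and the stages overlapped. Neither transcript passed the test.

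IFNAR1 and the nearby gene ENSBGRG00000000131 carried peaks at their 3' ends in both stages. IFNAR1 is a chain of the receptor for type I interferons, which in ruminants includes the pregnancy signal interferon tau. In pregnancy its peak lay in the last exon (36967089 to 36967325) with a fold enrichment of 4.14 and a log10 FDR of -92.5. The estrus peak that overlapped it (36965831 to 36967325) was the last one of the list analysed here, and its enrichment was not analysed. Estrus had a further weak peak from exon 10 of 11 (36964630 to 36965772, fold enrichment 2.96, log10 FDR -0.897) with no pregnancy counterpart.

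ENSBGRG00000000131 has no symbol in the files, which annotate it with the JAK-STAT and cytokine receptor pathways. In estrus its peaks were at 36819664 to 36826219 (fold enrichment 12) and 36826429 to 36826668 (3.95), and in pregnancy at 36825261 to 36826040 (8.83) and 36826159 to 36826578 (2.70), all in the 3' UTR. The first estrus peak overlapped both pregnancy peaks, and its log2 ratio was 0.44 to the first and 2.15 to the second, with which it shared only 61 bp. The second peaks of the stages had a log2 ratio of 0.55. Estrus was thus higher in all 3 pairs of this gene.

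Neither IFNAR1 nor ENSBGRG00000000131 passed the expression test. IFNAR1 FPKM was 7.04 and 11.4 in estrus and 11.5, 11.02 and 10.1 in pregnancy, with overlapping stages. ENSBGRG00000000131 was at 9.93 and 9.09 in estrus and 9.04, 9.58 and 9.43 in pregnancy, a log2 difference of 0.02 (standard error 0.23). Of the list of 12 interferon receptor and response genes, IFNAR1, IFNGR2 and IL10RB were in the table, and 0 of these 3 met the study's standard (2.31% of all genes did), with a median log2 difference of 0.02 against 0.07 over all 130 genes tested. IL10RB, a receptor chain shared by interleukin-10 family cytokines, lies between the peak genes at an FPKM of 6.69 to 10.9 in the 5 libraries and had no peak in either stage.

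The membrane proteins EVA1C and CXADR differed in the stages in which a 3' UTR peak was called. EVA1C, a receptor that binds the guidance ligand SLIT, had a sharp 3' UTR peak in both stages, at 36073787 to 36074292 in estrus and 36073965 to 36074262 in pregnancy. Its fold enrichment was 10.4 in estrus and 7.17 in pregnancy, a log2 ratio of 0.54, with log10 FDR values of -230 and -100. A weaker estrus-only peak lay in its last exon (36097158 to 36100025, 3.95, log10 FDR -1.64). EVA1C FPKM was 4.36 and 2.85 in estrus and 4.03, 5.11 and 4.76 in pregnancy, and the stages overlapped.

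CXADR, a tight junction adhesion protein and virus receptor, had an estrus-only 3' UTR peak ending at the last base of the gene (18044582 to 18071143, 209 bp of exon, fold enrichment 2.89, log10 FDR -3.26). No anestrus (YO-A) peak overlapped it. CXADR FPKM was 2.74 and 3.37 in estrus and 2.61, 1.72 and 2.86 in pregnancy, a log2 difference of 0.36 (standard error 0.34, limma, adjusted p = 0.764). The transcript was therefore detected in pregnancy without a called peak.

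RBM11, an RNA-binding protein that regulates splicing, had the strongest estrus-only peak. It lay in the 3' UTR (14233257 to 14233557, 301 bp) with a fold enrichment of 3.51 and a log10 FDR of -18.3. An overlapping anestrus peak had a fold enrichment of 3.48. RBM11 FPKM was 5.41 and 3.77 in estrus and 4.35, 3.67 and 3.28 in pregnancy, with overlapping stages and a log2 difference of 0.27 (standard error 0.37, limma, adjusted p = 0.867).

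The remaining stage-only peaks were weak and lay in genes of low or unclear expression. The pregnancy-only peak annotated to LIPI, a lipase gene, was at 14212338 to 14212548 (fold enrichment 4.86, log10 FDR -1.07), but it stood among plus-strand peaks and began at the first base of RBM11, whereas LIPI is a minus-strand gene whose own 5' end overlaps that start. LIPI FPKM was 0.285 and 0 in estrus and 0.242, 0 and 0.0860 in pregnancy, and the annotation and the strand thus point to different genes. Whether the authors counted reads by strand is not given in the sources used here, so the levels of these overlapping genes are uncertain. ENSBGRG00000000024, annotated as an ABC transporter, had a pregnancy-only peak in its last exon (14389168 to 14389288, 4.32, log10 FDR -0.600), with FPKM of 0.177 and 0.627 in estrus and 1.83, 0.197 and 0.0878 in pregnancy.

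ENSBGRG00000000034, which has no annotation, had a peak in each stage that did not overlap, at 16704697 to 16705147 in estrus (7.89, log10 FDR -0.940) and 16667373 to 16680127 in pregnancy (7.56, log10 FDR -1.07). An anestrus peak with a fold enrichment of 8.42 overlapped the pregnancy one. Its FPKM was at most 0.0947 in the 5 libraries, below the minimum for the expression test. High fold enrichment here stood beside a very low input level, and the number of reads behind it is unknown.

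Of the 13 peak genes, 12 were tested for expression with limma on log2(FPKM + 0.1), and ENSBGRG00000000034 was below the minimum mean FPKM of 0.1. By the study's standard 0 of 12 peak genes were called against 3 of 130 genes, which is 2.31% of all genes tested. The study applied that standard to edgeR results, whereas here it was applied to limma results, so these are not the study's own calls. At an unadjusted p under 0.05 the count was 0 of 12 against 12 of 130, and after Benjamini-Hochberg adjustment it was 0 of 12 against 0 of 130 (0%). The log2 differences of the peak genes ran from -0.91 to 0.36 with a median of 0.04, beside a median of 0.07 over all genes. The libraries did not overlap between stages in 3 of the 12 genes (VGLL3 and GABPA lower and USP16 higher in estrus), against 35 of 130 genes (26.9%), which is near the same share. For these 3 genes the exact two-sided permutation test gave p = 0.2, the smallest it can give for 2 against 3 libraries. The number called over all genes ranged from 1 to 9 over the alternatives, with 9 without YO-F3 and 5 without YO-P2.

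**Figure D4:**
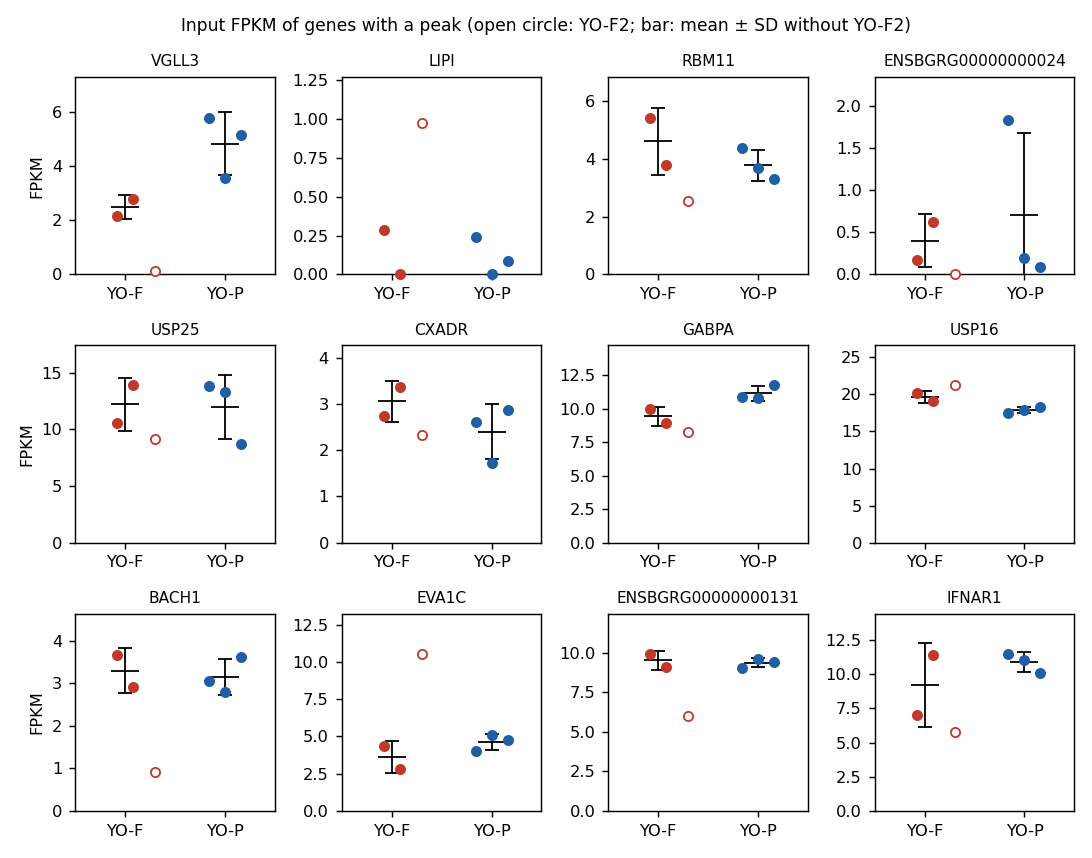
Input FPKM of the 12 tested peak genes in each library of estrus (YO-F) and pregnancy (YO-P), with YO-F2 as an open circle outside the mean ± SD, and no mean drawn where a library is listed at 0. VGLL3 and GABPA are lower and USP16 is higher in both estrus libraries than in all 3 pregnancy libraries, and the stages overlap in the other genes.

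Enrichment and expression were set side by side for the 7 genes with a ratio, taking the mean log2 ratio of each gene. The enrichment ratio and the FPKM difference had the same sign in 2 of 7 genes (VGLL3 and ENSBGRG00000000131). The FPKM differences of ENSBGRG00000000131 (0.02), USP25 (0.05) and BACH1 (0.06) were each below their standard error. They changed sign in 4, 5 and 4 of the alternatives, so the count of signs is uncertain. Across these genes Pearson's r was -0.05 and Spearman's rho -0.54, and without GABPA they were 0.05 and -0.60. Genes are not replicates and share their libraries, so these values describe the 7 genes only. Fold enrichment is taken over the input of the same stage and FPKM is measured in input libraries, so the 2 measures are not independent. The GABPA ratio of 4.92 stood beside an FPKM difference of -0.24, and the EVA1C ratio of 0.54 beside -0.38.

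**Figure D5:**
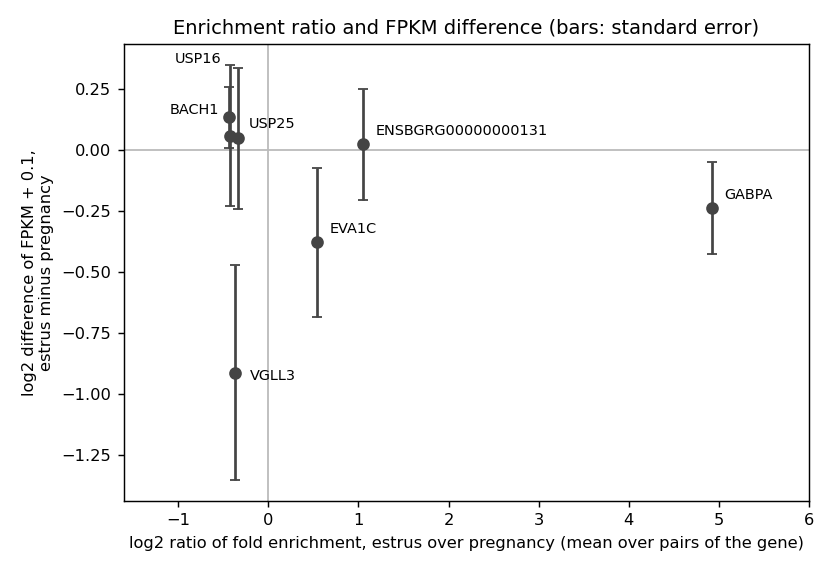
Mean log2 ratio of fold enrichment, estrus over pregnancy, against the log2 difference of FPKM + 0.1, estrus minus pregnancy, for the 7 genes with a ratio, with the standard error of the FPKM difference as a bar. GABPA lies far to the right at 4.92 with an FPKM difference near 0, and VGLL3 lies lowest at -0.91.

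Not every expressed gene of the range had a called peak, which does not show that its transcript lacked m6A. The expression table placed 31 plus-strand genes there, 12 of them with a peak in either stage. Of 21 genes whose FPKM averaged 1 or more in the 5 libraries, 10 had a peak, and of the 10 genes below that level 2 did. The 11 expressed genes without a peak included SOD1, the cytosolic superoxide dismutase (100.9 ± 1.3 FPKM in estrus, SD, n = 2, and 95.3 ± 9.25 in pregnancy, SD, n = 3), JAM2, a junctional adhesion molecule (52.0 ± 2.64 and 44.9 ± 12.2), ROBO1, a SLIT receptor (14.0 ± 4.79 and 13.3 ± 3.27), and GBE1, the glycogen branching enzyme (10.8 ± 1.35 and 10.9 ± 0.432). ENSBGRG00000000121, 1 of the 3 called genes, also lay there without a peak. Its FPKM was given as 0 in each of the 3 estrus libraries, against 1.14, 1.95 and 1.93 in pregnancy.

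The authors' own comparison of the stages listed 263 regions in 247 genes in the part analysed here, of which only positions were used. By annotation, 103 (39.2%) were in a 3' UTR, 31 (11.8%) in a 5' UTR and 129 (49.0%) in other exons. In the compared range there were 4, and they coincided with the estrus-only peaks of RBM11 (14233257 to 14233527), GABPA (27544251 to 27546173) and the last exon of BACH1 (31799364 to 31799779), and with the shared IFNAR1 peak (36965831 to 36967325). The GABPA region was that of the estrus peak at 2.37, not of the peak at 108. Outside the range the listed genes included WWTR1, the Hippo pathway coactivator TAZ (chromosome 1, 129029698 to 129029788), and YTHDF2, an m6A reader that promotes decay of marked RNA (chromosome 2, 13070805 to 13071614). Of the 18 listed genes with an expression test, 1 met the study's standard, ENSBGRG00000000153, beside 3 of 130 (2.31%) over all genes.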

How the data were processed

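m6A immunoprecipitation and input libraries of yak ovary were paired-end sequenced by the authors. Reads were filtered with fastp, aligned with HISAT2 (2.0.4 in the submitters' processing notes) and quantified with StringTie. FPKM values were deposited per gene and input library. Counts are not in that table, so the reads behind each value and their counting error are unknown. As deposited by the authors, 1 peak list per stage gives fold enrichment as a ratio of IP over input, and 2 score columns, log10 p and log10 FDR. ChIPseeker 1.18.0 is in the submitters' notes, and the peak caller is not given in the sources used here. The authors' comparison tables hold a log2 fold change, its p-value and a log10 FDR, which were not used. The strand of a peak followed from its place in the list. The last estrus row analysed here gave a position only, and it entered counts but no ratio. Per-sample columns outside the series' samples numbered 0.

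FPKM was tested as log2(FPKM + 0.1) for 130 of 173 genes. These had a mean of at least 0.1 over all 9 input libraries, YO-F2 included. The test was 1 limma 3.58.1 fit (R 4.3.3, trend) of 3 stages and 8 libraries without YO-F2, which the study excluded. Nothing states that libraries of a stage came from separate animals beyond their numbering, so p-values measure the spread between these samples. A fold change on this scale understates low genes. The fit was tested on simulated data with changes of 3 on the log2 scale. That test does not show whether changes as small as those of the peak genes would be found. Exact permutation tests used scipy 1.17.1 (two-sided, the smaller tail doubled). Python 3.11.15, pandas 2.3.3 and matplotlib 3.10.9 were used for the rest. Every gene with a compared peak was named, and genes beyond these were picked with their values known. Members and lists were chosen with earlier results of these data known. Alternatives were other overlap rules, FDR and enrichment minimums, pseudocounts, filters, scaling, YO-F2 included, 2 stages only, a replicate block and each library left out.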

Additional observations from a re-analysis of the deposited data

How the results depend on the processing

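Peak counts depended on the overlap rule and the calling limit. Requiring 50% of both peaks left 4 shared estrus peaks and 9 pregnancy-only peaks, with a median log2 ratio of 0.10. A log10 FDR of -2 or lower left 5 estrus-only and 1 pregnancy-only peaks, a fold enrichment of at least 3 left 6 estrus-only peaks, and counting genes gave 2 and 2, or 1 and 1 with the peak annotated to LIPI counted to RBM11, chosen after seeing the data. Over all rows, beyond the compared range, 274 pregnancy peaks had no partner, since the estrus list analysed here ends earlier. The median log2 ratio turned to -0.34 with 1 value per gene and to -0.34 with 1 value per cluster of peaks, because the 3 pairs of ENSBGRG00000000131 then count once. It was 0.051 without the GABPA pair, chosen after seeing the data.

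For expression, 1 peak gene was called with YO-F2 included and 1 with the replicate block, VGLL3 both times (log2 difference -2.06 and -1.16), and 0 under every other alternative run. Nothing states that the replicate numbers pair the samples. Deviations from the stage mean correlated at -0.17 to 0.39 between same-numbered libraries of different stages, which cannot settle it. The block moved the calls over all genes from 3 to 4. After adjustment 1 gene that is no peak gene was called with only 2 stages in the fit, without YO-F3 and without YO-P1. Of 154 values of single genes, 130 kept direction and call, 22 changed sign and 2 (VGLL3) passed the threshold. With YO-F2 the log2 difference was -0.00205 for RBM11, -0.088 for USP25, -0.52 for BACH1, 0.14 for EVA1C and -0.19 for ENSBGRG00000000131. With median-ratio scaling it was -0.034 for USP25, -0.021 for BACH1 and -0.058 for ENSBGRG00000000131, with the block -0.0103 for USP25, and with a pseudocount of 0.01 it was -0.20 for LIPI and 0.046 for ENSBGRG00000000024. The causes were not tested. Leaving out 1 library changed the sign of LIPI (-0.89 to 1.06), ENSBGRG00000000024 (-0.78 to 0.93), USP25 (-0.16 to 0.24), BACH1 (-0.10 to 0.22), ENSBGRG00000000131 (-0.040 to 0.087) and IFNAR1 (-0.62 to 0.069). Spearman's rho ran from -0.46 to -0.21 with 1 library left out (-0.21 without YO-F1 or without YO-P2) and was -0.11 with YO-F2.

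Peak values have no replicates, stage and month of collection cannot be told apart, and 32 peaks on 1 strand of 1 chromosome do not describe the transcriptome.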

Other observations

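In the pregnancy list analysed here, 16 fold enrichment values occurred in at least 3 peaks each, over 92 peaks in all. The value 7.56 occurred in 16 peaks and 4.32 in 13. Steps of 1.08 separated several of these values. That step was taken from the most frequent values of this same list, so a high share at its multiples is partly built in. Of the weak peaks, with a log10 p above -3, 57 of 78 (73.1%) were within 0.02 steps of a whole multiple of 1.08. Among peaks with a log10 p of -20 or lower, 8 of 129 (6.2%) were. In the compared range 2 of 4 pregnancy-only peaks (ENSBGRG00000000024 at 4.32 and ENSBGRG00000000034 at 7.56) and 0 of 9 shared pregnancy peaks were at such a multiple.

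Anestrus peaks, in a list that reached no further than GABPA here, overlapped both VGLL3 peaks of pregnancy, at fold enrichments of 20.8 and 8.91 for the first and 6.13 for the second, and the estrus VGLL3 peak at 20.8. They also overlapped the USP25 peaks of both stages (2.06) and the estrus-only GABPA peak from exon 4 (1.79). Of the other FPKM values of YO-F2, JAM2 was at 7.88 against 33.1 to 57.4 in the other 5 libraries of the 2 stages, and ROBO1 at 1.16 against 9.80 to 17.4. Values also departed upward, with KIF17 at 26.8 in YO-F2 against 0.691 to 1.47 in those 5 libraries, and HUNK at 3.67 against 0.336 to 0.779. Over the 13 peak genes YO-F2 was below all other libraries in 5 genes, above them in 3 and within their range in 5.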
